A study of Mus musculus with 22 samples.

Results

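Zic1, Zic2, Zic4, Zic5, Tbx18, Alx1, Alx4, Twist1 and Prrx1 are 9 transcription factor genes of the meninges and other mesenchyme, described here in sorted cells of the embryonic mouse spinal cord. They were taken by gene name and are 9 of the 55376 genes counted. The zinc finger factors Zic1, Zic2, Zic4 and Zic5 are known from the dorsal neural tube and from the meninges, the fibroblast-rich coverings of the brain and cord. Tbx18, a T-box repressor, is known from pericytes and other mural cells. The paired-type homeobox factors Alx1, Alx4 and Prrx1 and the basic helix-loop-helix (bHLH) factor Twist1 are known for building craniofacial and limb mesenchyme from neural crest and mesoderm. None of the 9 is a defining factor of endothelial cells or motor neurons.

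Polyadenylated RNA of mouse embryos at embryonic day 12.5 was sequenced from cells sorted on 2 reporters, ISL1-fGFP for motor neurons and Kdr-Cherry for endothelial cells. In the knockout series, wild-type and Plxnd1 knockout endothelial cells and motor neurons were taken from the cord together with its meninges, with 3 libraries deposited per group. Plxnd1 encodes a semaphorin receptor of vessels and neurons. In the regional series, wild-type Kdr-Cherry cells came from the cord tissue itself (spinal, 5 libraries) or from the meninges around it (meningeal, 5 libraries). Spinal batches 1 to 3 came from the ventral cord and batches 4 and 5 from the whole cord. The labels give one knockout genotype with no allele or driver, and no genotype apart from wild type in the regional series. Embryos were pooled by genotype and their number is not given, so p-values measure the spread between libraries of pools.

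The file of wild-type endothelial batch 2 held the same counts as that of knockout endothelial batch 1 in 55376 of 55376 genes, and was left out, which leaves 2 wild-type endothelial libraries. Depth ranged from 15685784 to 21493255 counts across the regional libraries and from 20680902 to 27035395 across the 11 remaining ones. The series were counted with different strand settings, so no level was compared between them. Levels are CPM, counts scaled to library size in the usual way. The targeted gene Plxnd1 was below its wild-type level in each knockout library, at 15.4 to 28.9 against 175 and 213 CPM in endothelial cells and at 0.645 to 1.78 against 5.14 to 12.1 CPM in motor neurons.

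The cell type labels were checked against marker lists. Summed over 14 meningeal fibroblast markers (collagen genes, Foxc1, Lum and others), the level was 16285 to 22497 CPM in the meningeal and 1454 to 2964 CPM in the spinal endothelial libraries. In the knockout series it was 16218 to 16280 CPM in wild-type and 15641 to 18562 CPM in knockout endothelial libraries, against 274 to 495 CPM in the motor neuron libraries. The 14 endothelial markers (Pecam1, Cdh5 and others) summed to 1108 to 2269 CPM in the meningeal, 2128 to 4752 CPM in the spinal, 969 to 1493 CPM in the wild-type and 656 to 1225 CPM in the knockout endothelial libraries. Fibroblast markers therefore exceeded endothelial markers in every meningeal library and in every endothelial library of the knockout series. Among the spinal libraries they did so in batch 3 alone (2339 against 2128 CPM). The 10 pericyte and smooth muscle markers (Pdgfrb, Rgs5 and others) exceeded the endothelial ones in spinal batches 1, 2, 3 and 5. Their sums there were 4844, 9087, 3624 and 4632 CPM, against 4076, 3206, 2128 and 4509 CPM. In batch 4 they did not (4596 against 4752 CPM). "Endothelial" below is the label of these libraries, and a level in bulk RNA cannot tell more cells of a type from more RNA per cell.

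**Figure D1:**
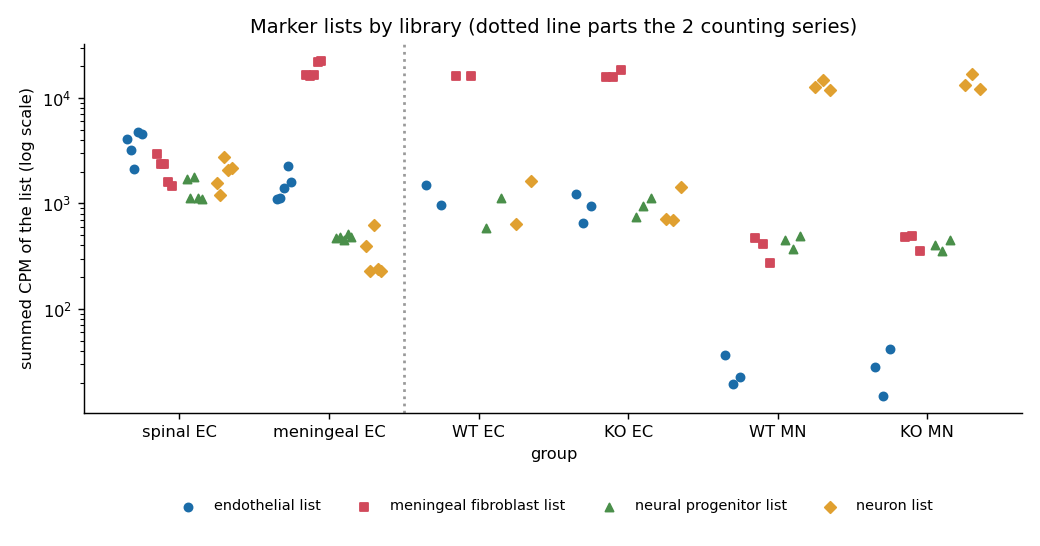
Summed CPM (log axis) of the endothelial, meningeal fibroblast, neural progenitor and neuron marker lists, 1 point per library, in the 6 groups. In the regional series the fibroblast list lies at 16285 to 22497 CPM in the meningeal and at 1454 to 2964 CPM in the spinal libraries. In the knockout series it lies at 16218 to 16280 CPM in wild-type and at 15641 to 18562 CPM in knockout endothelial libraries.

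The members lie on 6 chromosomes, and 4 of the 9 sit in pairs. In the GENCODE annotation of the GRCm38 build, Zic1 (chr9:91358058-91365810, minus strand) and Zic4 (chr9:91368970-91389348, plus strand) are divergently transcribed with starts 3159 bp apart. Zic5 (chr14:122456795-122465677, minus strand) and Zic2 (chr14:122475435-122479852, plus strand) are divergent as well, with 9757 bp and the noncoding gene 2610035F20Rik between them. Tbx18 shares 931 exon bases with the antisense gene D030062O11Rik, which was at 2.30 CPM or less in every library. Since the knockout series was counted without strand, reads there cannot be assigned to one strand.

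RefSeq windows from 250 to 51 bases before the gene start (GRCm38.p6) were matched for 6 of the 9 members. The divergent Zic1 and Zic4 are shown because they share one intergenic stretch, and Tbx18 and Twist1 because their levels were alike across regional libraries (below). Each is written 5′ to 3′ on the gene's strand. Capitals mark matches on either strand to the E-box CANNTG (bound by bHLH dimers), the T-box half-site GGTGTGA, the homeodomain core TAATTA, the Zic core CAGCAGG, the TATA box TATAAA or the CCAAT box; no matches overlapped in these windows.
Zic1, chr9:91365819-91366018, minus strand: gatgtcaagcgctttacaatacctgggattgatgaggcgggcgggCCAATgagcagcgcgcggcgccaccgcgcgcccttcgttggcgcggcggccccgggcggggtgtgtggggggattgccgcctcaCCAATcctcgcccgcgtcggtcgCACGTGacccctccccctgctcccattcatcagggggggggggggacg
Zic4, chr9:91368722-91368921, plus strand: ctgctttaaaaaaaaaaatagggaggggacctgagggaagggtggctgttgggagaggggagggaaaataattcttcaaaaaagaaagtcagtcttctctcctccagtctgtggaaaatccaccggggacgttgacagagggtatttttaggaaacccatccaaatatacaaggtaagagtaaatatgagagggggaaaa
Tbx18, chr9:87731311-87731510, minus strand: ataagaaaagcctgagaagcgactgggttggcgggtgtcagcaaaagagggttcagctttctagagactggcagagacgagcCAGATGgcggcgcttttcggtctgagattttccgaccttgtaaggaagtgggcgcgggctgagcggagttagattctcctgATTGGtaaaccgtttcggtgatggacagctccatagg
Twist1, chr12:33957421-33957620, plus strand: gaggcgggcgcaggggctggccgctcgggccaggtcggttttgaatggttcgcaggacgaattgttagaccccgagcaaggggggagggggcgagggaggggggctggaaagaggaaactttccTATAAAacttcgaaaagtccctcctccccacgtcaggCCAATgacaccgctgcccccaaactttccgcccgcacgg
The Zic1 window held 1 E-box and 2 CCAAT matches, with a GC content of 71.5%. Its partner Zic4 had no match to any of the 6 motifs and a GC content of 43.5%, beside a median of 51.5% over 32851 RefSeq windows. Tbx18 had 1 E-box and 1 CCAAT match, and Twist1 1 TATAAA and 1 CCAAT match. Of the windows of that length, 59% held an E-box, 28.4% CCAAT, 9.14% TATAAA, 6.82% the Zic core, 4.19% TAATTA and 2.71% the T-box half-site, so matches of the first kinds are common. They describe the sequence and no binding.

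The regional series asked how endothelial cells of the meninges differ from those inside the cord. Each of the 9 members was higher in the meningeal libraries, by 2.57-fold for Zic1 up to 11.4-fold for Prrx1 among the 7 well-counted genes, and more for the rarer Alx1 and Alx4. The 9 were called higher at an adjusted p under 0.05 (edgeR quasi-likelihood test, Benjamini-Hochberg over the 16213 genes tested), where 23.0% of the genes tested were called higher. The groups did not overlap for any of the 9, which held for 17.3% of the genes tested in the same direction. The members' median log2 fold change was 2.33, beside -0.01 over the genes tested. The meningeal fibroblast list, 14 of 14 higher, had a median of 3.41.

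**Figure D2:**
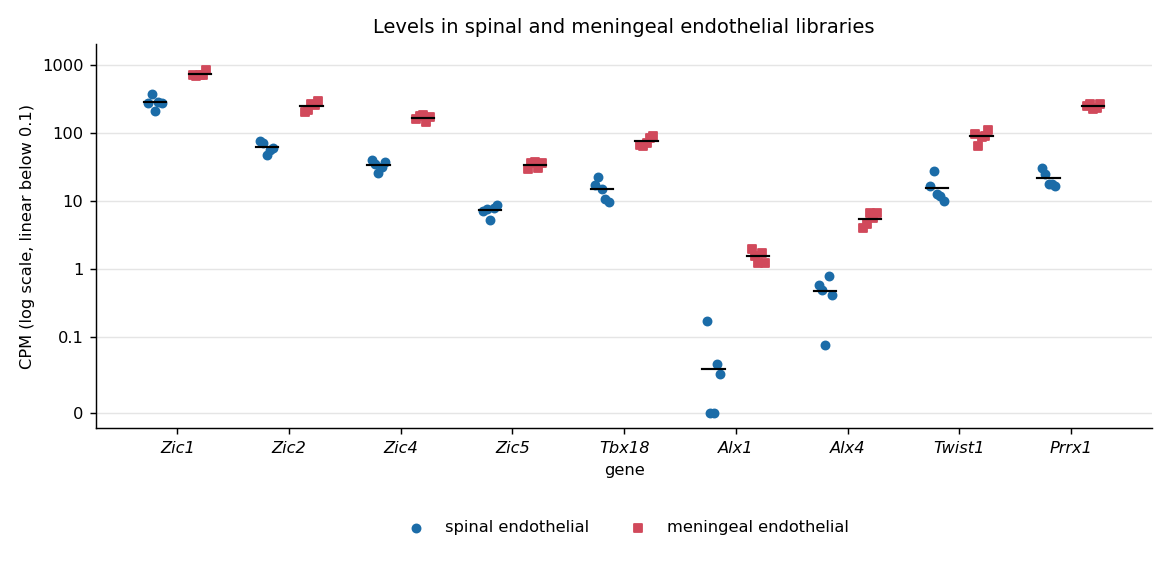
CPM of each member (log axis, linear below 0.1) in the 5 spinal and the 5 meningeal endothelial libraries, 1 point per library with bars at the group mean. For each gene the lowest meningeal point lies above the highest spinal one, and Alx1 is at 0 in 2 spinal libraries.

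Among the zinc finger genes, Zic1 was the most abundant. Its levels in batches 1 to 5 were 271, 374, 206, 281 and 275 CPM in the spinal and 708, 678, 705, 692 and 834 CPM in the meningeal libraries. At 206 CPM or more inside the cord, it had the smallest fold of the 9 (log2 fold change 1.36 ± 0.15 SE, adjusted p = 1.19e-05). Zic2, a holoprosencephaly gene, was at 75.5, 70.1, 47.5, 55.8 and 60.6 CPM in the spinal and 204, 213, 260, 258 and 291 CPM in the meningeal libraries. That is a 3.97-fold difference (log2 fold change 1.99 ± 0.15, adjusted p = 5.94e-07).

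Zic4 was at 40.3, 34.6, 25.3, 31.0 and 37.2 CPM in the spinal and 161, 174, 180, 142 and 172 CPM in the meningeal libraries. Zic5, the least abundant of the 4, was at 7.19, 7.70, 5.30, 7.90 and 8.64 CPM against 29.6, 36.0, 37.6, 30.4 and 36.1 CPM. They were 4.92-fold and 4.63-fold higher in the meningeal libraries, with log2 fold changes of 2.30 ± 0.13 for Zic4 (adjusted p = 1.46e-07) and 2.21 ± 0.15 for Zic5 (adjusted p = 2.87e-07).

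Within a library the proportions of the Zic genes also differed by region. The ratio of Zic1 to Zic2 counts was 3.59 to 5.33 in the spinal and 2.68 to 3.47 in the meningeal libraries. Zic1 to Zic4 was 6.73 to 10.8 against 3.89 to 4.86, and Zic1 to Zic5 was 31.9 to 48.5 against 18.8 to 24.0. These 3 ratios did not overlap between regions (2-sided exact permutation test, p = 0.00794, the smallest that 5 against 5 allows; 0.0106 after adjustment over the 4 ratios given here). The last, Zic4 to Zic2, overlapped (0.493 to 0.614 against 0.551 to 0.818, exact p = 0.0556). The ratios were chosen after the levels had been seen, and the order of the genes' own folds fixes their direction.

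**Figure D3:**
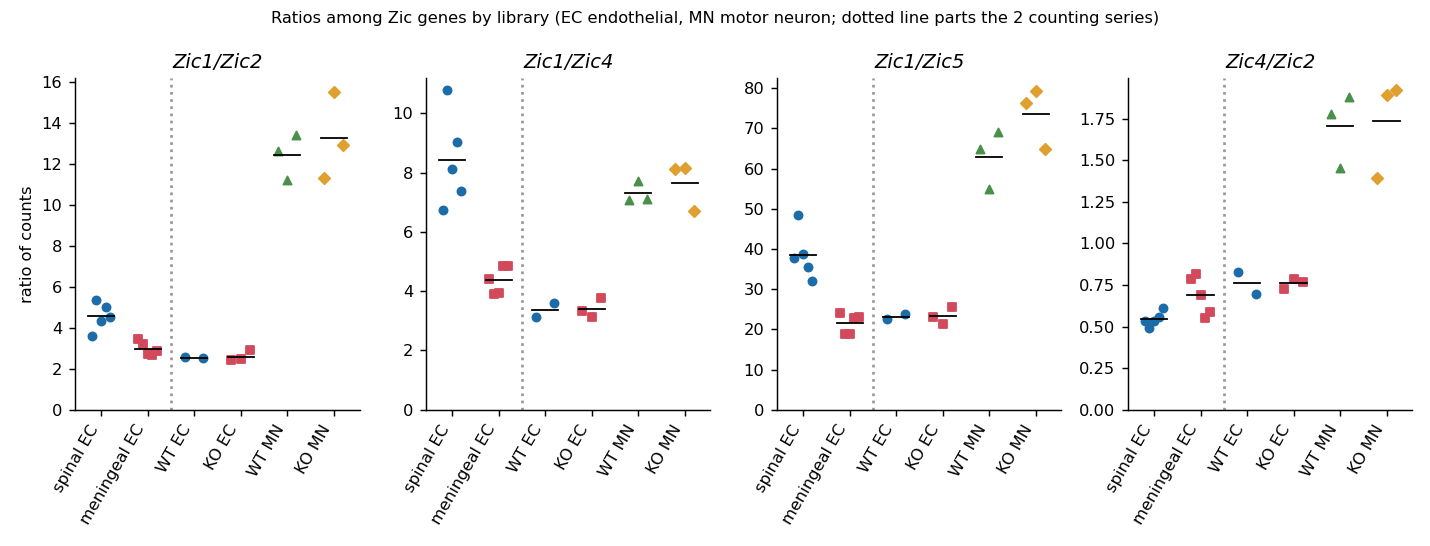
Ratios of the counts of Zic1 to Zic2, Zic4 and Zic5 and of Zic4 to Zic2, 1 point per library with bars at the group mean, in the 6 groups; a dotted line parts the 2 counting series. Zic1 to Zic2 is 2.68 to 3.47 in the meningeal and 3.59 to 5.33 in the spinal libraries. Within the knockout series it is 11.2 to 15.5 in the motor neuron and 2.40 to 2.91 in the endothelial libraries.

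Tbx18 was at 16.9, 22.8, 15.1, 10.6 and 9.78 CPM in the spinal and 66.8, 64.7, 70.2, 84.9 and 91.0 CPM in the meningeal libraries. The difference was 5.02-fold (log2 fold change 2.33 ± 0.22, adjusted p = 3.09e-06). Tbx18 is a mural cell gene as well. Summed, the 10 pericyte and smooth muscle markers were lower in the meningeal libraries, at 1394 to 1863 CPM against 3624 to 9087 CPM in the spinal ones. Of the 10, 3 were called higher (Tagln, Acta2 and Myh11) and 6 lower, among them Cspg4, Abcc9 and Kcnj8. The list's part in the Tbx18 result was not tested. Twist1, required for mesenchyme of the head, was at 16.3, 27.4, 12.5, 11.7 and 10.1 CPM in the spinal and 97.2, 63.4, 85.8, 89.6 and 110 CPM in the meningeal libraries (5.72-fold, log2 fold change 2.51 ± 0.26, adjusted p = 6.74e-06). For both genes spinal batch 2 was the highest spinal library, and still below the lowest meningeal one.

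The paired homeobox genes had the widest gaps. Prrx1, a marker of limb and other lateral mesenchyme, was at 30.9, 25.1, 17.9, 17.8 and 16.7 CPM in the spinal and 248, 261, 226, 233 and 266 CPM in the meningeal libraries. With 11.4-fold (log2 fold change 3.51 ± 0.18, adjusted p = 8.45e-08), it had the smallest adjusted p of the 9. Alx4 was at 0.585, 0.492, 0.0898, 0.783 and 0.414 CPM against 4.07, 4.55, 6.76, 5.66 and 6.61 CPM. Its 41 spinal and 507 meningeal counts give a ratio of 12.5 (95% exact interval for counting error only, 9.08 to 17.6; adjusted p = 1.0e-05).

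Alx1 was barely counted. It had 3, 0, 0, 1 and 1 counts in the spinal and 37, 24, 21, 36 and 23 counts in the meningeal libraries. The ratio of 28.5 therefore has a wide counting interval, 11.9 to 89.1 (adjusted p = 1.89e-05). Alx1 shares 243 exon bases with the gene Gm17028 on its own strand.

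Per kb of exon, the order of the group means in the meningeal libraries was Zic1 (128 CPM per kb), Zic2 (101), Twist1 (54.7), Zic4 (36.4), Prrx1 (25.1), Tbx18 (16.1), Zic5 (7.12), Alx4 (0.784) and Alx1 (0.467). In the spinal libraries Zic1 (49.8 CPM per kb) and Zic2 (25.4) also led, followed by Twist1 (9.58), Zic4 (7.40), Tbx18 (3.21) and Prrx1 (2.20). Prrx1 and Tbx18 thus changed places. For each of the 9 the levels scattered more, relative to their mean, inside the cord: the coefficient of variation of Twist1 was 44.8% in the spinal and 19.1% in the meningeal libraries, and that of Prrx1 28.3% and 6.92%. The spinal group holds both dissections, and Alx1 and Alx4 had at most 12 counts in a spinal library, so these figures also contain dissection and counting error.

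The fibroblast markers moved with the members in the regional comparison, and the members' levels were set against them. Per 1000 CPM of the summed fibroblast list, no member was higher in the meningeal libraries without overlap. The sum itself had a median of 2339 CPM in the spinal and 16640 CPM in the meningeal libraries. A member with a smaller fold than that of the sum was therefore bound to come out lower on this scale. Zic1 was 87.9 to 189 in the spinal and 31.5 to 43.2 in the meningeal libraries on this scale, Zic2 20.3 to 41.7 against 11.8 to 15.9, and Tbx18 5.70 to 9.59 against 3.87 to 4.31. These 3 were lower without overlap, and the other 6 overlapped. Among the 6, the medians of Zic4 (9.65 against 14.6 in the spinal libraries), Zic5 and Twist1 were lower in the meningeal libraries. Those of Prrx1 (13.9 against 10.6), Alx1 and Alx4 were higher. The part of fibroblast RNA in the regional result was not tested. Lists of the cord's own cells moved the other way, with 8 of 8 neural progenitor, 9 of 9 neuron and 5 of 6 tested dorsal neural tube genes lower in the meningeal libraries, and their part was not tested.

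Relatives of the members were read from lists of the same families. The 6 Gli and Glis genes, zinc finger relatives of the Zic genes, were higher in the meningeal libraries, led by the hedgehog effectors Gli3 (log2 fold change 0.98 ± 0.13), Gli1 (2.08 ± 0.39) and Gli2 (1.74 ± 0.34). Of the other T-box genes, 9 of 15 could be tested, 1 was higher (Tbx15, 3.19 ± 0.39) and 6 were lower, among them T, Tbx4 and Tbx2. Of other mesenchymal homeobox genes, 5 of 8 tested were higher, among them Meox2 (3.04 ± 0.20) and Msx1 (1.49 ± 0.26), while Uncx (-3.81 ± 0.34) and Shox2 (-0.95 ± 0.33) were lower. Adjusted p-values of these named genes by edgeR were 0.0337 or less.

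The bHLH genes behaved less uniformly than Twist1 itself. Of 4 tested mesenchymal bHLH genes, Twist2 (log2 fold change 3.66 ± 0.34) and Msc (3.0 ± 0.38) were higher and Scx was lower. Among 7 dimer partners and inhibitors, the E-protein gene Tcf12 (1.28 ± 0.12) and the inhibitor gene Id3 (0.48 ± 0.14) were higher. The inhibitor genes Id4 (-3.54 ± 0.28), Id2 (-0.79 ± 0.11) and Id1 (-0.70 ± 0.18) were among 4 that were lower. Of 4 epithelial-mesenchymal transition factors, Snai1 (2.08 ± 0.18) and Snai2 (0.70 ± 0.24) were higher.

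Likeness was the root mean square difference of log2 CPM, each gene centred on its own mean, over the 10 regional libraries and 16213 genes. Each value spans both regions, which differ in level for every member, so genes of like regional fold come out near. The nearest gene to Zic4 was Zic5, and the reverse, at 0.14. They lie on different chromosomes and had like regional log2 fold changes (2.30 and 2.21, beside 1.36 for Zic1). The divergent partners Zic1 and Zic4 were not among each other's nearest 3. For Zic1 these were 1700001L05Rik (0.06), Slc25a24 (0.11) and Hic1 (0.12), and for Zic2 Tril (0.12), Fbln1 (0.14) and Ism1 (0.14). Tbx18 was the nearest gene to Twist1 (0.21), and Twist1 the seventh nearest to Tbx18, after Tgfbr3 (0.15), Pdgfrl (0.17), Slc38a4 (0.19) and others. Prrx1 was nearest to Lepr (0.16), Aebp1 (0.19) and Col6a1 (0.19). Alx1 (Serpinb8, 0.23) and Alx4 (Ntn5, 0.43) had more distant nearest genes and few counts.

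The ventral and whole-cord spinal libraries were compared as well, though dissection and batch cannot be told apart. With 3 libraries against 2, edgeR called 0 of the 8 members tested, where 6.01% of 16560 genes were called in either direction (5008 at an unadjusted p under 0.05); DESeq2 called 1 member and 15.0% of genes. Tbx18 was nearest to a call, at 16.9, 22.8 and 15.1 CPM in ventral and 10.6 and 9.78 CPM in whole cord (log2 fold change 0.86 ± 0.20, adjusted p = 0.0608). DESeq2 called it (adjusted p = 0.0122), as did edgeR without ventral batch 2 (0.0227). The fibroblast list had a median log2 fold change of 1.18 in the same direction, with 2 of 14 genes called higher. The 4 Zic genes lay between -0.28 and 0.17.

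The comparison of wild-type endothelial cells with wild-type motor neurons asked what sets the 2 sorted populations apart. The 9 members were called higher in the endothelial libraries (edgeR, 1 fit of the 11 libraries), where 33.8% of 19266 genes were called higher. They did not overlap between groups, as 40.6% of genes did not in that direction. Their log2 fold changes ran from 0.78 to 7.41 with a median of 3.56, beside 0.02 over the genes tested. Fibroblast markers moved along, with 13 of 14 higher in the endothelial libraries. So did the endothelial (14 of 14), pericyte and smooth muscle (10 of 10), macrophage (9 of 9) and erythroid (8 of 8) markers. The neuron (9 of 9) and motor neuron (8 of 8) markers were lower. The part of these lists in the result was not tested.

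**Figure D4:**
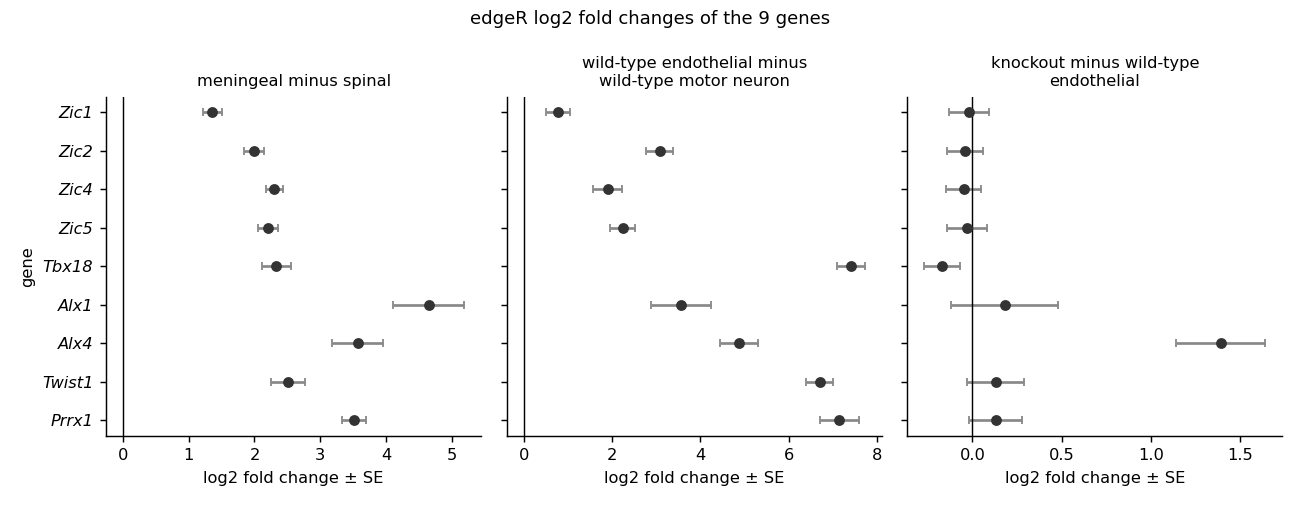
Log2 fold changes with SE (edgeR) of the 9 members between meningeal and spinal, wild-type endothelial and wild-type motor neuron, and knockout and wild-type endothelial libraries; the horizontal scales differ. Zic1 has the smallest value in the first 2 panels (1.36 and 0.78), and Alx4 stands apart in the last (1.39).

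The members divide into 2 sets by their level in motor neurons. The 4 Zic genes were well counted there. Zic1 was at 528, 448 and 734 CPM in wild-type motor neurons and at 973 and 986 CPM in wild-type endothelial libraries (log2 fold change 0.78 ± 0.28, adjusted p = 0.0288). This call was lost when wild-type endothelial library 1 or 3 or wild-type motor neuron library 1 or 2 was left out, with adjusted p-values of 0.0892, 0.0925, 0.0689 and 0.0922.

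Zic4 was at 74.7, 58.0 and 103 CPM in the motor neurons and at 311 and 275 CPM in the endothelial libraries (1.90 ± 0.33, adjusted p = 5.14e-04). Zic5 was at 8.15, 8.16 and 10.6 CPM against 43.3 and 41.4 CPM (2.24 ± 0.29, adjusted p = 6.63e-05). Zic2 differed most of the 4, at 42.0, 40.1 and 54.7 CPM against 376 and 395 CPM (3.08 ± 0.30, adjusted p = 8.01e-06). The ratio of Zic1 to Zic2 counts was accordingly 11.2 to 13.4 in wild-type motor neurons and 2.50 to 2.59 in wild-type endothelial libraries. The dorsal neural tube list summed to 204 to 300 CPM in the wild-type motor neurons and 42.7 to 94.0 CPM in the wild-type endothelial libraries. Lbx1 made up most of the motor neuron sum (172 to 231 CPM). Of the 10 genes, Lbx1 was called higher in the motor neurons, Lmx1a was called higher in the endothelial libraries, and 8 did not pass. With the batch block, Olig3 joined Lbx1 and Pax7 joined Lmx1a. The list's part in the Zic levels was not tested.

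The 5 other members were close to 0 in motor neurons. Tbx18 was at 0.778, 0.192 and 0.544 CPM in wild-type motor neurons against 95.9 and 81.5 CPM in wild-type endothelial libraries, a 170-fold difference (log2 fold change 7.41 ± 0.31, adjusted p = 3.66e-08). Twist1 was at 1.51, 1.15 and 0.712 CPM against 125 and 111 CPM (6.70 ± 0.31, adjusted p = 6.12e-08). Prrx1 was at 2.66, 0.913 and 1.59 CPM against 278 and 217 CPM (7.14 ± 0.44, adjusted p = 3.83e-07). In these motor neurons the fibroblast list summed to 274 to 466 CPM. Crabp2 (mean 113 CPM) and Aldh1a2 (101 CPM) had the highest means of the list there. Crabp2 was the 1 list gene called higher in motor neurons than in endothelial libraries. Lum, Dcn and Pdgfra had means of 3.21, 5.21 and 5.28 CPM.

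Alx4 had 4, 1 and 4 counts in the wild-type motor neurons and 127 and 93 in the wild-type endothelial libraries, a CPM ratio of 30.2 (95% counting interval 15.6 to 67.0). Alx1 had 2, 0 and 7 counts against 45 and 43 (ratio 12.1, 6.09 to 27.3). In the knockout motor neurons Alx1 had 0 counts in each of 3 libraries. Set against a floor of 3 counts over the group, the ratio of knockout endothelial to knockout motor neuron libraries was 43.8, which depends on that floor. The 95% exact interval, which also holds the counting error of the endothelial libraries, has a lower limit of 35.1. The 9 members were higher without overlap in knockout endothelial than in knockout motor neuron libraries as well.

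**Figure D5:**
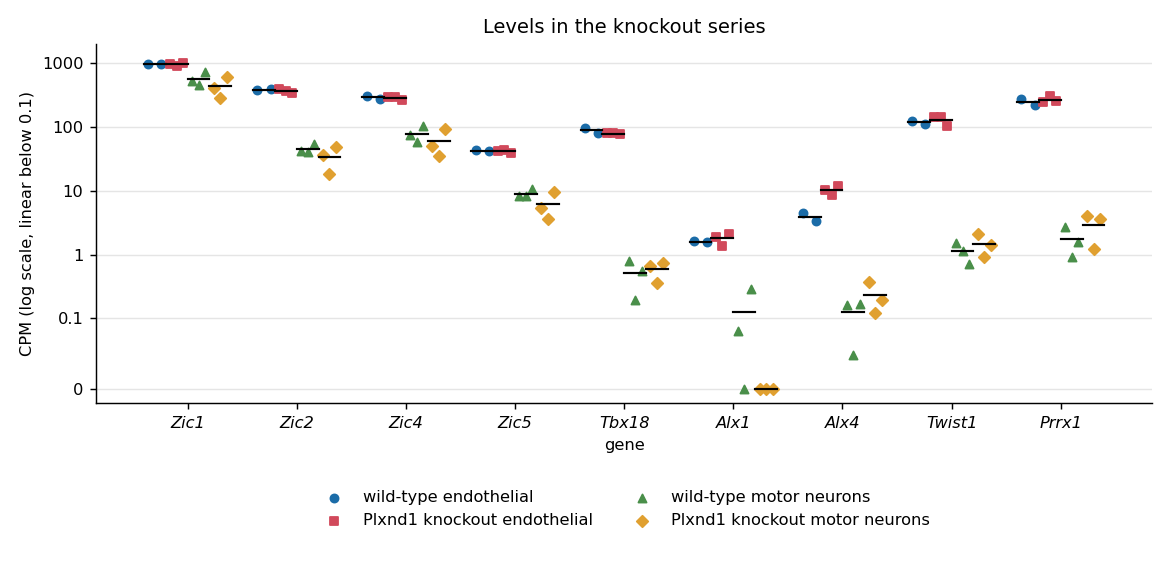
CPM of each member (log axis, linear below 0.1) in wild-type and Plxnd1 knockout endothelial cells and motor neurons, 1 point per library with bars at the group mean. The endothelial groups overlap except for Alx4 and Tbx18, and the 5 members apart from the Zic genes lie below 5 CPM in the motor neurons.

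Whether the loss of Plxnd1 altered these genes in endothelial cells was tested with 3 knockout and 2 wild-type libraries. EdgeR called 0 of the 9 members and 0% of 18209 genes in either direction (431 genes at an unadjusted p under 0.05), while DESeq2 called 34 genes. The targeted gene Plxnd1 was thus not called by edgeR, though 9.22-fold lower (log2 fold change -3.20 ± 0.26, adjusted p = 0.161). DESeq2 called Plxnd1 (adjusted p = 8.50e-25). Alx4 was the member with the widest gap, at 4.51 and 3.35 CPM in the wild-type libraries, against 10.3, 8.60 and 12 CPM in those of the knockout. The knockout libraries lay above the wild-type ones, as for 5.87% of genes. The log2 fold change was 1.39 ± 0.25 with an adjusted p of 0.960.

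With batch as a block, which pairs batches 1 and 3 and leaves 1 residual degree of freedom, Alx4 was called higher (log2 fold change 1.51 ± 0.20, edgeR adjusted p = 1.30e-04), as 0.763% of genes were. DESeq2 called it without the block (1.40 ± 0.27, adjusted p = 2.87e-04), as 0.154% of genes. With the duplicated file kept as a wild-type library, the value was 0.77 ± 0.40 (edgeR adjusted p = 1.0). Cartilage and sclerotome markers moved with Alx4. Their sum was 332 and 518 CPM in the wild-type libraries against 548 to 751 CPM in those of the knockout, and with the block 4 of 9 tested (Sox9, Col2a1, Col9a1 and Acan) and the homeobox gene Msx2 were called higher. Their part in the result was not tested.

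The other 8 members differed little between knockout and wild-type endothelial libraries. Tbx18, at 80.1, 79.6 and 76.2 CPM in knockout libraries against 95.9 and 81.5 CPM, was lower without overlap, as were 7.98% of genes, but not called (log2 fold change -0.17 ± 0.10, adjusted p = 0.999). Zic1 (-0.02 ± 0.11), Zic2 (-0.04 ± 0.10), Zic4 (-0.05 ± 0.10) and Zic5 (-0.03 ± 0.11) had values smaller than their errors. Twist1 (0.13 ± 0.16), Prrx1 (0.13 ± 0.15) and Alx1 (0.18 ± 0.30) did as well. The fibroblast list had a median of 0.02.

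In motor neurons, edgeR called 0 of 7 members tested and 0.0120% of 16695 genes (2 genes, 190 at an unadjusted p under 0.05; DESeq2 4 genes, no member). Alx1 and Alx4 had too few counts to be tested. The targeted gene Plxnd1, 7.83-fold lower, was not called by edgeR here either (log2 fold change -2.97 ± 0.46, adjusted p = 0.800). DESeq2 called Plxnd1 (adjusted p = 1.06e-08). In batches 1 to 3 of the knockout, Zic1 was at 414, 288 and 616 CPM, against 528, 448 and 734 CPM in the wild type. Zic4 was at 51.0, 35.3 and 92.0 CPM against 74.7, 58.0 and 103 CPM. Each of the 4 Zic genes was lower in the knockout library of 3 of 3 batches, as were 11.6% of genes, though the groups overlapped.

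The log2 fold changes were -0.37 ± 0.28 for Zic1, -0.41 ± 0.30 for Zic2, -0.40 ± 0.34 for Zic4 and -0.53 ± 0.33 for Zic5, each with an edgeR adjusted p of 1.0. With batch as a block the adjusted p-values were 0.251, 0.650, 0.251 and 0.611. Knockout batch 1 also held RNA of liver genes, whose list summed to at most 2.16 CPM in the wild-type motor neurons and to 596 CPM there. Whether this RNA had a part in the Zic levels was not tested. The summed dorsal neural tube list was also lower in the 3 batches, at 209, 177 and 260 CPM in the knockout against 234, 204 and 300 CPM. Its 8 tested genes had a median log2 fold change of -0.07, and 0 were called. Lbx1 made up most of the sum (mean 175 against 196 CPM), while Olig3 (9.78 against 9.66) and Pax7 (2.51 against 2.33) were not lower. The neural progenitor list was lower in the 3 batches too, at 407, 354 and 448 CPM in the knockout against 454, 370 and 489 CPM. The motor neuron list was at 1238, 1590 and 520 CPM in the knockout against 844, 1311 and 535 CPM. The part of these lists in the Zic values was not tested. Tbx18 (0.20 ± 0.52), Twist1 (0.39 ± 0.40) and Prrx1 (0.76 ± 0.51) did not pass the test, with levels of 4.06 CPM or less. Prrx1 and the untested Alx4 were each higher in the knockout library of 3 of 3 batches, as were 13.5% of genes. With the block, Prrx1 had an edgeR adjusted p of 0.652.

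The difference between the endothelial and the motor neuron knockout effects was tested directly as an interaction. EdgeR called 0 of the 9 members and 0% of 19266 genes (352 at an unadjusted p under 0.05; DESeq2 called 1 gene, no member). The estimates for Zic1, Zic2, Zic4 and Zic5 were 0.35 ± 0.38, 0.36 ± 0.40, 0.35 ± 0.45 and 0.50 ± 0.40, and that for Alx4 was 0.60 ± 0.67. For Alx1, with 0 counts in knockout motor neurons, no fold is given.

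In the knockout series, likeness over 11 libraries and 19266 genes gave other neighbours. Tbx18 was nearest to Bgn (0.10), Pdgfrb (0.18) and Itga11 (0.21), and Twist1 to Cxcl12 (0.21), Scarf2 (0.24) and Islr (0.26). Prrx1 was nearest to Colec12 (0.26), Anpep (0.27) and Bgn (0.28). For Zic5 the nearest were Tgif2 (0.21), Zic4 (0.23) and 2610035F20Rik (0.24), its noncoding neighbour, and for Zic4 Abca4 (0.18), Entpd1 (0.19) and Gm37477 (0.19), a gene on the opposite strand within Zic4. Zic1 was nearest to Zfand4 (0.13) and Pde1a (0.15), and Zic2 to Cenpm (0.20) and Dok2 (0.21). Each of these values spans both cell types, which differ in level for every member.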

How the data were processed

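The deposited values are whole-number counts per gene. Per the file headers, the authors counted reads with featureCounts 1.6.4, the knockout series without strand as single reads and the regional series reverse-stranded as pairs, and no option for multi-mapping reads was set. Per the submitters' processing notes, reads were trimmed with Trimmomatic 0.39 and aligned with STAR 2.5.3a to mm10 (GRCm38).

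From these counts each comparison was fitted with edgeR 4.0.16 (quasi-likelihood test, TMM scaling, genes kept by filterByExpr with min.count 10) in R 4.3.3 over every gene that passed, with Benjamini-Hochberg adjustment and a threshold of 0.05; the procedure was tested on simulated data. DESeq2 1.42.0 and other settings were alternatives. CPM used TMM-scaled library sizes, and log2 CPM a prior count of 2. Exact permutation tests used SciPy 1.17.1.

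The labels number the batches, which pairs libraries across groups; deviations of same-numbered libraries from their group means correlated at 0.397 and 0.468 in endothelial cells, 0.279, 0.318 and 0.271 in motor neurons, and -0.273 to 0.303 in the regional series. The 9 members and the marker and family lists were chosen with earlier results of these data known. Named genes were the members, the called genes of each family list (at most 3 per direction) and the 3 nearest by likeness. The file identical to another group's library was left out. Some results on genes of the family lists are not reported here.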

Additional observations from a re-analysis of the deposited data

Results flagged for a closer look

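Zic1 in the meningeal libraries was at 678 to 708 CPM in 4 of them and at 834 CPM in batch 5, which stood apart from the rest of its group by Dixon's criterion. It was 1 of 18 groups examined for an outlying library, and chance alone marks about 1 group in 20.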

How the results depend on the processing

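The 9 regional calls held in every alternative that tested the gene (17 settings, 16 for Alx1). The 9 cell type calls did so except Zic1, as given above. In the endothelial knockout the number of members called went from 0 to 1 with DESeq2 and to 1 with batch as a replicate block, in both cases Alx4; its log2 fold change ranged from 0.77 to 1.63. In the dissection comparison it went from 0 to 1 with DESeq2, 2 without a filter on low counts (Tbx18 and Twist1), 1 in a fit of all regional libraries, and 0 to 1 with 1 library left out. The block changed no other call of a member. Small values changed sign in these cases; the cause was not tested. In the endothelial knockout, Zic1 was 0.01 with the block, and leaving out 1 library in turn gave -0.06 to 0.01 for Zic1, -0.10 to 0.01 for Zic2, -0.14 to 0.06 for Zic4, -0.06 to 0.02 for Zic5 (0.00 without knockout library 3) and -0.05 to 0.33 for Prrx1. Leaving out 1 library in turn gave -0.17 to 0.64 for Tbx18 in the motor neuron knockout, -0.54 to 0.06 for Twist1 in the interaction, and -0.22 to 0.23 for Zic1 and -0.17 to 0.15 for Zic4 between dissections. In the interaction Alx4 was -0.02 with the duplicated file kept. Of the single-gene values under the alternatives, 700 kept direction and side of the threshold, 14 changed sign, 7 gained a call and 4 lost one. Fits of batches 1 to 3 or 4 and 5 alone were added after seeing the data, and each kept the 9 regional calls. With 2 wild-type endothelial libraries, and with Alx1 at 0 to 7 counts in the motor neuron and 0 to 3 in the spinal libraries, small differences could not be detected. Large differences could also go uncalled by edgeR in the knockout comparisons, as that of the targeted gene Plxnd1 did.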
